A study of Mus musculus with 7 samples.

Results

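Metallothionein and zinc transporter transcripts were examined in the prostate of mice with experimental autoimmune prostatitis. The genes are the metallothioneins Mt1 and Mt2, the zinc sensor Mtf1, the exporters Slc30a1 and Slc30a4, and the importers Slc39a1, Slc39a6, Slc39a7, Slc39a8 and Slc39a14. They were picked by gene symbol, and all 10 were among the 16019 genes measured. All 7 samples came from mice in which the prostatitis model had been set up. In 4 of them LIT-927 (LIT927 in the sample labels) was given intraperitoneally for 14 days at 25 mg/kg per day, and the other 3 were injected with its solvent, methyl-β-cyclodextrin (the vehicle). LIT-927 is a small molecule that neutralises the chemokine CXCL12. No source used here states the strain, the age, how the prostatitis was induced or whether a library is 1 animal. The spread behind every p-value is therefore that between libraries and may be partly technical.

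Metallothioneins are small cysteine-rich proteins that bind zinc and copper in the cytosol and can scavenge radicals. Free zinc activates the transcription factor MTF1, which binds metal response elements in the promoters of metallothionein genes and of the exporter gene Slc30a1. SLC30 proteins (ZnT) move zinc out of the cytosol, across the cell membrane or into vesicles, and SLC39 proteins (ZIP) move it into the cytosol. Prostate epithelium is known for accumulating and secreting zinc.

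The promoters of the metallothionein genes and of Slc30a1 are shown because these are the textbook MTF1 targets among the genes, and because Mt1 and Mt2 transcripts had similar profiles over the libraries (r = 0.964) while Mt1 and Slc30a1 had r = 0.251 as deposited and -0.692 after median-of-ratios scaling, neither with an adjusted p under 0.05 over the 45 pairs of genes. Each runs from 250 bases before to 50 bases after the start in the RefSeq table (GRCm38.p6), on the strand of the gene. Capitals mark the core of the metal response element, searched on both strands as TGCACNC and TGCGCNC. No cores overlapped in these genes.
Mt1, chr8:94178839-94179138, plus strand: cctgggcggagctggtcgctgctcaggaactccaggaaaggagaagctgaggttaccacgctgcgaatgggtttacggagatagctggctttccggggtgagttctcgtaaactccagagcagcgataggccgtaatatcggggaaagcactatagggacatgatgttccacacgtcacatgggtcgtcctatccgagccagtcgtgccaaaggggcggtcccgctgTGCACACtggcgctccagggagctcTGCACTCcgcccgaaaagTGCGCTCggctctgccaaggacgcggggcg
Mt2, chr8:94172368-94172667, plus strand: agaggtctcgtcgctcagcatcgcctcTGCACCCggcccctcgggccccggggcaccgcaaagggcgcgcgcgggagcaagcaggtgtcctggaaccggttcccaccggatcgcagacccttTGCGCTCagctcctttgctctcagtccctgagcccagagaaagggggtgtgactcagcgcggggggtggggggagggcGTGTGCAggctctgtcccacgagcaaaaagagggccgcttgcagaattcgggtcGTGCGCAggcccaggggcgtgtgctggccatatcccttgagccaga
Slc30a1, chr1:191906531-191906830, plus strand: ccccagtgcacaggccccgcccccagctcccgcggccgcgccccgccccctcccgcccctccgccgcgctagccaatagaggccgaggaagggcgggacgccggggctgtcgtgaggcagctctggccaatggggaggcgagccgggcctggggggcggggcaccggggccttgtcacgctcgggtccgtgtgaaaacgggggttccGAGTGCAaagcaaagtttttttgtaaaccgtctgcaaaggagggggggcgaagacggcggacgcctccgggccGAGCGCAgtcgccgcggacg
The Mt1 window held 3 cores, the Mt2 window 4 and the Slc30a1 window 2. At least 1 core was found in 25.7% of all 32851 promoters of this length in the table, at least 2 in 7.11% and at least 3 in 1.97%. The Slc30a4 window also held 3, and 1 of the 2 Slc39a8 windows held 1. No core was in the windows of Mtf1, Slc39a1 and Slc39a7, and 8 of the 10 genes were in the table. GENCODE M21 also has transcript starts 152 bases (Mt1) and 242 bases (Mt2) downstream of the starts used here, outside the printed windows. A match is only a string of letters in this window.

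Recovered fragments summed to 32023785 to 35240765 per library. The prostate markers Pbsn and Tgm4 were detected in all 7 libraries, and seminal vesicle markers made up 11.5% to 69.1% of the summed FPKM. Vehicle replicate 3 and LIT-927 replicate 3 stood apart in urothelial markers, whose summed level was 267 and 330.3 FPKM there and 26.8 to 43.7 FPKM in the other 5. In 7 of 12 marker lists all measured markers were lower with LIT-927: basal epithelium, fibroblast, endothelium, smooth muscle, skeletal muscle, macrophage, and leukocyte, 6 of 6 in each. Of all genes 44.5% were lower, and 36.0% of those with a mean of at least 1 FPKM. The sums with vehicle and with LIT-927 were 79.5 to 439 and 59.4 to 209.98 FPKM for fibroblasts, 2793 to 9922 and 850.4 to 5616 FPKM for smooth muscle, and 118 to 338 and 39.0 to 122 FPKM for macrophages, none at 0. They were 33.1 to 110.1 and 28.9 to 47.3 FPKM for basal epithelium, 18.2 to 74.1 and 3.97 to 34.4 FPKM for endothelium, 309.5 to 994 and 93.0 to 610.4 FPKM for skeletal muscle (Myh1, Myh2 and Myh4 at 0 in a library), and 2.92 to 8.75 and 1.14 to 2.65 FPKM for leukocytes (Ms4a1 at 0 in a library). Acta1 made up most of the skeletal muscle sum in every library, at 286 to 863 FPKM with vehicle and 89.1 to 557 FPKM with LIT-927. The skeletal muscle markers Tnnt3 and Myh4 were at 147 and 35.1 FPKM in vehicle replicate 3 and at most 0.981 and 0.480 FPKM in the other libraries. Of the 6 neutrophil markers 5 were lower, and Ngp and Camp were at 0 in a library. Neutrophil sums were 12.7 to 28.5 FPKM with vehicle and 0.286 to 37.8 FPKM with LIT-927. Ltf was the largest of the 6 in every library but LIT-927 replicate 3. It was at 4.85, 23.4 and 9.19 FPKM with vehicle and 27.4, 34.3, 0.034 and 20.4 FPKM with LIT-927. The part of these cell types in the values of the zinc genes was not tested.

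The genes spanned a wide range of levels. On the FPKM scale, fragments per kilobase and per 1000000 fragments of the library, which compares genes per length, the order of the means over 7 libraries was Mt2 (395), Mt1 (365), Slc39a7 (127), Slc39a1 (36.2), Slc39a8 (19.6), Slc30a4 (7.84), Slc30a1 (5.34), Slc39a6 (4.99), Slc39a14 (2.66) and Mtf1 (2.53). Mt2 and Mt1 lay above 99.3% and 99.2% of all genes in mean level. Neighbours did not all separate: Mt2 exceeded Mt1 in 5 of 7 libraries, Slc39a8 exceeded Slc30a4 in 4, and Slc39a14 exceeded Mtf1 in 3. Slc39a7 exceeded Slc39a1 in 7 of 7.

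**Figure D1:**
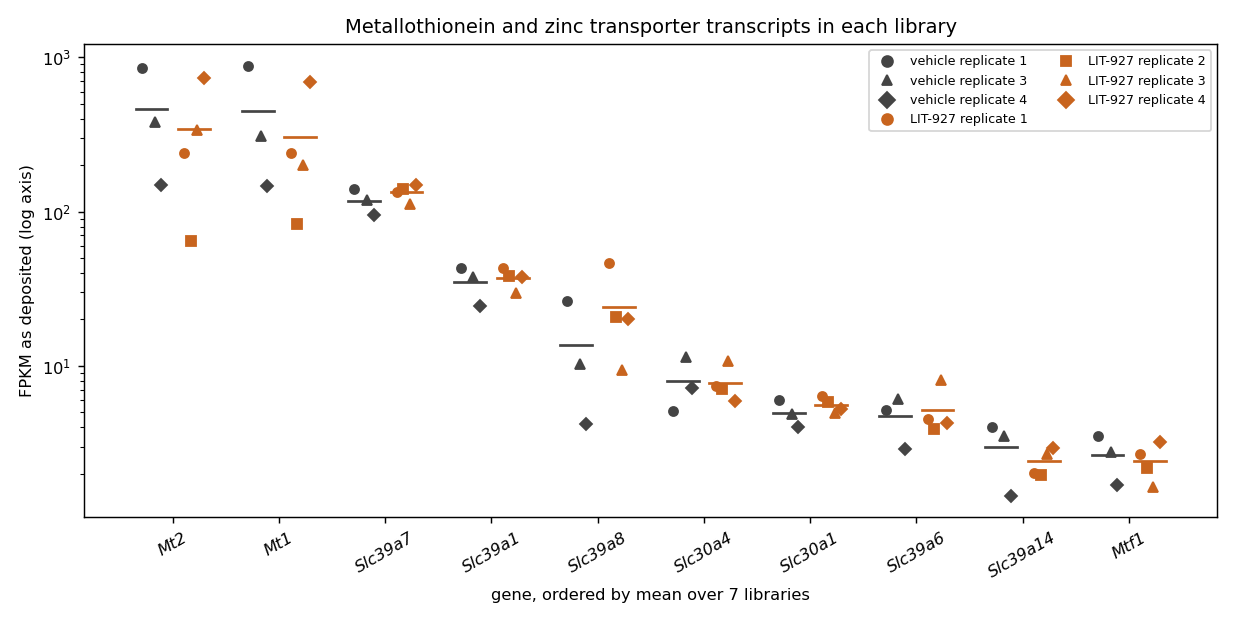
Level of each gene in every library (FPKM as deposited, log axis), vehicle in grey and LIT-927 in orange, with bars at the group means. The vehicle and LIT-927 libraries overlap for all 10 genes, and Mt1, Mt2 and Slc39a8 spread over 10.6, 13.1 and 11.05 times between their lowest and highest library.

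Mt1 encodes a metallothionein that most tissues make (mm10 chromosome 8, 94179082 to 94180327, plus strand). It was at 885, 309.6 and 146 FPKM in vehicle replicates 1, 3 and 4, and at 240.0, 83.2, 199 and 689 FPKM in LIT-927 replicates 1 to 4. The highest library was a vehicle one and the lowest a LIT-927 one, but LIT-927 replicate 4 lay above 2 of the 3 vehicle libraries. Mt2, its neighbour 5513 bases upstream (94172664 to 94173568), stood at 848, 384 and 149.8 FPKM with vehicle. In the LIT-927 libraries Mt2 was at 240.1, 64.8, 337 and 738 FPKM. Both genes thus had the same highest and the same lowest library. Group means were 303 ± 266 FPKM (SD, n = 4) with LIT-927 against 447 ± 388 FPKM (SD, n = 3) with vehicle for Mt1, and 345 ± 285 against 461 ± 356 FPKM for Mt2. On the log2(FPKM + 1) scale the difference, LIT-927 minus vehicle, was -0.58 for Mt1 (SE 0.81, 95% interval -2.47 to 1.32, limma adjusted p = 0.998) and -0.55 for Mt2 (SE 0.88, 95% interval -2.59 to 1.496, limma adjusted p = 0.998). Exact two-sided permutation tests gave p = 0.571 and 0.60. The sign turned for both genes without vehicle replicate 1 (0.11 and 0.06), and for Mt2 without LIT-927 replicate 2 (0.10).

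Mt1 and Mt2 had nearly the same order of libraries. Pearson r over the 7 libraries was 0.964 (exact permutation p = 0.00119, and 0.0208 after Benjamini-Hochberg adjustment over the 45 pairs of genes). Spearman rho was 0.964 (exact permutation p = 0.00278, adjusted 0.0625). Without the 2 libraries farthest from the Mt1 median, vehicle replicate 1 and LIT-927 replicate 4, r was 0.95 (exact permutation p = 0.025). Their transcripts share 0 stretches of 50 bases with each other or with another annotated gene. On the opposite strand Gm45774 covers 73.5% of the exon bases of Mt2, and the strand setting of the counting is not known. The ratio of Mt2 to Mt1 within a library, which no scaling between libraries can change, ran from 0.779 in LIT-927 replicate 2 to 1.69 in LIT-927 replicate 3, and lay between 0.958 and 1.24 in the vehicle libraries. It did not separate the groups (exact permutation p = 0.914).

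Mtf1, the sensor, had the lowest mean level of the 10 genes and differed 2.17 times between its lowest and highest library, 1.39 times after scaling. It was at 3.53, 2.75 and 1.70 FPKM with vehicle, and 2.69, 2.19, 1.63 and 3.23 FPKM with LIT-927. Its difference was -0.08 (SE 0.28), and it rested on 399 to 908 fragments per library. The Mt1 to Mtf1 ratio ranged from 38.1 to 251. An antisense gene, 1110065P20Rik, shares 8.09% of the Mtf1 exon bases.

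The exporter Slc30a1 sends zinc across the cell membrane (chromosome 1, 191906767 to 191913247, plus strand). On the log2(FPKM + 1) scale its spread within groups was the smallest of the 10 as deposited, and that of Slc39a1 after scaling. Vehicle libraries were at 6.02, 4.90 and 4.02 FPKM and LIT-927 libraries at 6.38, 5.81, 4.97 and 5.29 FPKM. Its pooled SD within groups, 0.19 on the log2(FPKM + 1) scale, exceeded that of 3.82% of genes with a mean of at least 1 FPKM, and that of 34.97% after scaling. The SD of Mt1 (1.27) exceeded 96.5% of them, and 95.1% after scaling. Adding 1 to the FPKM lowers the SD more for genes at low levels. Between its lowest and highest library Slc30a1 differed 1.59 times, and the more abundant Slc39a7 1.58 times. The ratio of Mt1 to Slc30a1 ran from 14.3 in LIT-927 replicate 2 to 147 in vehicle replicate 1, and it was 130 in LIT-927 replicate 4 (exact permutation p = 0.40 between groups). The Slc30a1 difference was 0.15 (SE 0.22, 95% interval -0.35 to 0.66), and 0.03 without vehicle replicate 4.

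Slc30a4 fills vesicles with zinc in secretory epithelium, the mammary gland included. It was at 5.10, 11.5 and 7.22 FPKM with vehicle and at 7.38, 7.08, 10.7 and 5.88 FPKM with LIT-927. The 2 highest values came from vehicle replicate 3 and LIT-927 replicate 3, and the group difference was 0.01 (SE 0.31, 95% interval -0.71 to 0.72). Its sign was not stable, at -0.05 after median-of-ratios scaling, which divides each library by the median ratio of its genes to their mean.

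**Figure D2:**
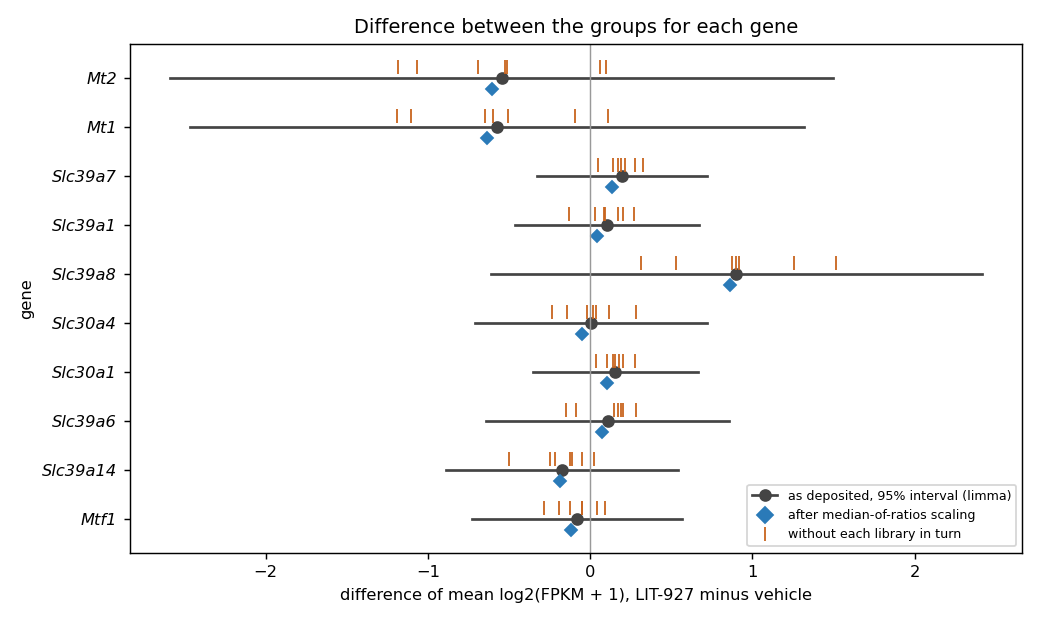
Difference of mean log2(FPKM + 1), LIT-927 minus vehicle, with the 95% interval of limma (dark grey), after median-of-ratios scaling (blue) and without each library in turn (orange ticks). Every interval includes 0, and those of Mt1, Mt2 and Slc39a8 are the widest of the 10.

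Slc39a8, an importer of zinc, manganese and iron (chromosome 3, 135825279 to 135888572, plus strand), had the largest difference of the 10 genes with all 7 libraries. Without vehicle replicate 4, LIT-927 replicate 1 or LIT-927 replicate 4 that of Mt1 was larger in size (-1.19, -0.60 and -1.10, against 0.31, 0.53 and 0.92 for Slc39a8). Its level was 26.5, 10.2 and 4.18 FPKM in vehicle replicates 1, 3 and 4, against 46.2, 20.8, 9.47 and 20.03 FPKM in LIT-927 replicates 1 to 4. LIT-927 replicate 1 was highest and vehicle replicate 4 lowest, and the groups overlapped. The means were 24.1 ± 15.6 and 13.6 ± 11.5 FPKM, and the log2 difference was 0.90 (SE 0.65, 95% interval -0.61 to 2.41; limma adjusted p = 0.998, unadjusted 0.206; exact permutation p = 0.343). It stayed above 0 in all 23 other settings, from 0.31 without vehicle replicate 4 to 1.52 without vehicle replicate 1.

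Slc39a14, the closest relative of Slc39a8 in transport, takes up the same metals and is known as an interleukin-6 target in liver. It was at 4.03, 3.52 and 1.43 FPKM with vehicle and 2.03, 1.96, 2.67 and 2.95 FPKM with LIT-927, a difference of -0.17 (SE 0.31). Within a library, Slc39a8 was 6.56, 2.90 and 2.91 times Slc39a14 with vehicle and 22.7, 10.6, 3.55 and 6.78 times with LIT-927. The mean log2 ratio was 1.19 higher with LIT-927, not beyond the spread between libraries (exact permutation p = 0.143, the smallest possible being 0.0286). This ratio was formed after the values of both genes were seen.

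Slc39a7, which releases zinc from the endoplasmic reticulum and Golgi, was the most abundant transporter, at 139, 119 and 94.5 FPKM with vehicle and 134, 140.1, 112 and 149 FPKM with LIT-927. The difference was 0.19 (SE 0.22, 95% interval -0.33 to 0.72), and 0.05 without vehicle replicate 4. An annotated same-strand transcript, Gm20427, covers 80.7% of its exon bases, so its count depends on how shared reads were treated. Slc39a1, a plasma membrane importer, was at 43.1, 37.7 and 24.4 FPKM with vehicle and 42.9, 38.3, 29.5 and 37.6 FPKM with LIT-927, a difference of 0.10 (SE 0.24). After median-of-ratios scaling its libraries differed by at most 1.16 times. A pseudogene, Slc39a1-ps, shares 21.8% of its 50-base stretches. Slc39a7 stood at 3.12 to 3.98 times Slc39a1 in every library, the narrowest of the 8 ratios computed.

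Slc39a6, an importer known as an estrogen-responsive gene in breast cancer, was at 5.20, 6.08 and 2.91 FPKM with vehicle and at 4.52, 3.89, 8.04 and 4.25 FPKM with LIT-927. LIT-927 replicate 3 stood apart from the other LIT-927 libraries. The difference was 0.11 (SE 0.32, 95% interval -0.64 to 0.86), and it was -0.09 without that library.

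**Figure D3:**
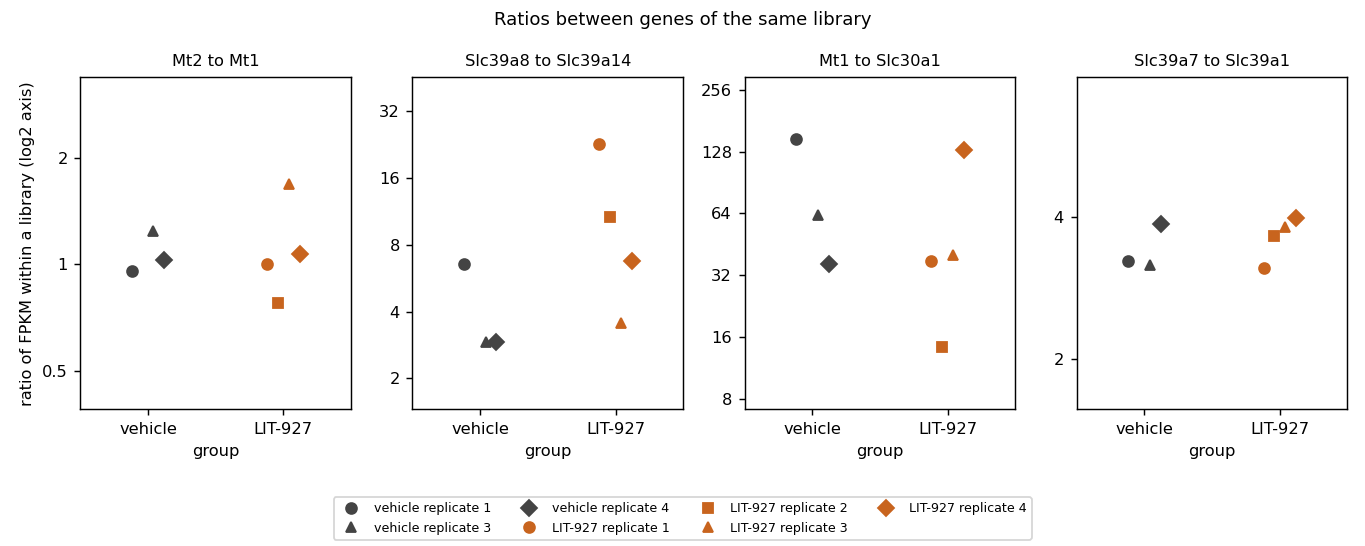
Ratios of FPKM between genes of the same library (log2 axis), vehicle in grey and LIT-927 in orange, 1 point per library. The Slc39a7 to Slc39a1 ratio stays between 3.12 and 3.98, while Mt1 to Slc30a1 runs from 14.3 to 147 and the groups overlap in all 4 panels.

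No gene of the set differed between the groups beyond the spread between libraries. In limma on log2(FPKM + 1) over all 16019 genes, 0 of the 10 passed an adjusted p of 0.05, as did 0% of all genes. At an unadjusted p under 0.05 the counts were 0 of 10 and 589 of 16019 (3.68%), and limma-voom on recovered fragments likewise gave 0 of 10. Over all genes that count was 1349 after median-of-ratios scaling and ranged from 294 to 1922 over the alternatives fitted on all genes. It was 259 in the smaller set of genes kept only with 1 FPKM or more in 3 libraries. In 4 settings 1 of the 10 had an unadjusted p under 0.05. Slc39a8 was at 0.0447 without vehicle replicate 1, at 0.0394 without it after scaling and at 0.0249 with the replicate block after scaling. Slc39a14 was at 0.0486 without vehicle replicate 4. The limma adjusted p-values of the 10 genes were 0.428 or more in all 23 alternatives. The difference was below 0 for 4 of the 10 and for 44.5% of all genes. Among genes with a mean of at least 1 FPKM, as all 10 had, it was below 0 for 36.0%. The median difference was 0.05 for the set and 0.02 for all genes. For 0 of 10 genes were all LIT-927 libraries below all vehicle libraries, against 2.12% of all genes, and for 0 of 10 were they all above, against 1.08%. After scaling both counts were again 0 of 10, against 4.99% and 4.04% of all genes. Without vehicle replicate 1 the difference was below 0 for 1 of the 10, and without vehicle replicate 4 for 7.

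Scaling the libraries changed many of the other correlations between the genes, but not all. The median-of-ratios factor of a library ran from 0.663 in vehicle replicate 4 to 1.30 in vehicle replicate 1, and 22.2% to 72.3% of the summed FPKM lay in each library's top 10 genes. Of the 45 pairs of genes 37 had a Pearson r above 0 in the deposited values (median 0.43) and 20 after scaling (median -0.07). An adjusted permutation p under 0.05 for r was reached by 4 pairs as deposited and by 2 after scaling. Slc30a1 and Slc39a8 had r = 0.974 as deposited (exact permutation p = 3.97e-04, adjusted 0.0179; rho 0.964, exact permutation p = 0.00278; 0.921 without the 2 libraries farthest from the median, exact permutation p = 0.075) and r = -0.117 after scaling. Slc30a1 and Slc39a1 had r = 0.908 as deposited (exact permutation p = 0.00337, adjusted 0.0379; rho 0.857, exact permutation p = 0.0238; 0.699 without the 2 farthest libraries) and r = 0.824 after scaling (exact permutation p = 0.0381, adjusted 0.312). Slc39a1 and Slc39a8 had r = 0.906 as deposited (exact permutation p = 0.00139, adjusted 0.0208) and r = 0.083 after scaling. Without the 2 farthest libraries their deposited r was 0.779. Mt1 and Mt2 kept r = 0.957 after scaling (exact permutation p = 9.92e-04, adjusted 0.0357). The only other pair with an adjusted p under 0.05 after scaling was Mt1 with Slc39a1 (r = -0.902, exact permutation p = 0.00159, adjusted 0.0357). Its Spearman rho was -0.929 (exact permutation p = 0.00675, adjusted 0.152), and r was -0.977 without the 2 libraries farthest from the Mt1 median. As deposited this pair had r = 0.449, the opposite sign.

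Metallothionein levels were set beside secretory genes of the prostate whose levels differed widely between the libraries. The genes compared here and in the next paragraph were chosen after their values were seen, and no test was made. Tgm4, prostate transglutaminase, was at 8361, 2073 and 1127 FPKM in vehicle replicates 1, 3 and 4 and at 1953, 61.0, 26.0 and 6706 FPKM in LIT-927 replicates 1 to 4. Pbsn, probasin, was at 11311, 3096 and 1283 FPKM and at 3823, 129, 233 and 8963 FPKM. For both genes, as for Mt1 and Mt2, vehicle replicate 1 was highest and LIT-927 replicate 4 second. LIT-927 replicate 3 differed, with Mt2 at 337 FPKM but Tgm4 at 26.0 FPKM. Mt3, a metallothionein best known from brain that lies 18517 bases upstream of Mt2, was low in both LIT-927 replicates 2 and 3, as Tgm4 was. Its levels were 263, 76.5 and 30.4 FPKM with vehicle and 46.5, 1.99, 2.08 and 228 FPKM with LIT-927. The same 2 libraries were lowest for Slc30a2, an exporter that loads secretory vesicles, at 65.7, 20.5 and 10.1 FPKM and at 21.6, 4.65, 0.689 and 58.9 FPKM. Neither passed the test between the groups (-2.28, SE 1.60, for Mt3 and -1.24, SE 1.20, for Slc30a2; limma adjusted p = 0.998 for both). In bulk tissue, fewer cells of a type and less RNA per cell cannot be told apart. The 7 prostate luminal markers were all measured, 5 of them lower with LIT-927, with summed FPKM of 2964 to 60074 with vehicle and 5991 to 116386 with LIT-927 and none at 0. That sum was highest in vehicle replicate 3 and LIT-927 replicate 3, where Sbp, spermine binding protein, was at 53139 and 114916 FPKM, so it did not order the libraries as Mt1 did. Msmb (1020 and 337 FPKM) and Hoxb13 (256 and 377 FPKM) were also highest in those 2 libraries. Krt8 and Krt18 varied less, at 108 to 187 and 189 to 345 FPKM. The part of these cells in the metallothionein values was not tested.

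Slc39a8 and Slc30a4 ordered the libraries in other ways. Svs1, a seminal vesicle secretory gene, was at 11985, 25355 and 11062 FPKM in vehicle replicates 3 and 4 and LIT-927 replicate 3, and at 38.8 to 243 FPKM in the other 4 libraries. Of the 8 seminal vesicle markers 6 were higher in these 3 libraries than in the other 4. Svs2 and Pate4 were not, and both were highest in LIT-927 replicate 2 (159456 and 43583 FPKM). The Slc39a8 level was 4.18 to 10.2 FPKM where Svs1 was high and 20.03 to 46.2 FPKM elsewhere. The Slc30a4 level as deposited was 11.5, 7.22 and 10.7 FPKM where Svs1 was high and 5.10 to 7.38 FPKM elsewhere, with overlap. After scaling the values were 10.7, 10.9 and 13.2 against 3.91 to 6.99, without overlap. Akr1b7, a vas deferens protein gene, was at 15.9 to 1597 FPKM in the 3 libraries and 5998 to 17099 FPKM in the other 4. Each treatment had libraries on both sides, 2 of 3 vehicle and 1 of 4 LIT-927 libraries being high in Svs1. The 8 seminal vesicle markers were all measured, 5 of them lower with LIT-927, and summed to 51017 to 563781 FPKM with vehicle and 142402 to 301495 FPKM with LIT-927, none at 0. Of 6 vas deferens and epididymis markers 4 were measured, 0 of them lower, with sums of 98.4 to 9419 and 20.4 to 19620 FPKM and Lcn5 at 0 in a library. Urothelial markers, 5 of 6 lower, summed to 26.8 to 267 and 29.3 to 330.3 FPKM, with Upk3a at 0 in a library. The part of these tissues in the Slc39a8 and Slc30a4 values was not tested.

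**Figure D4:**
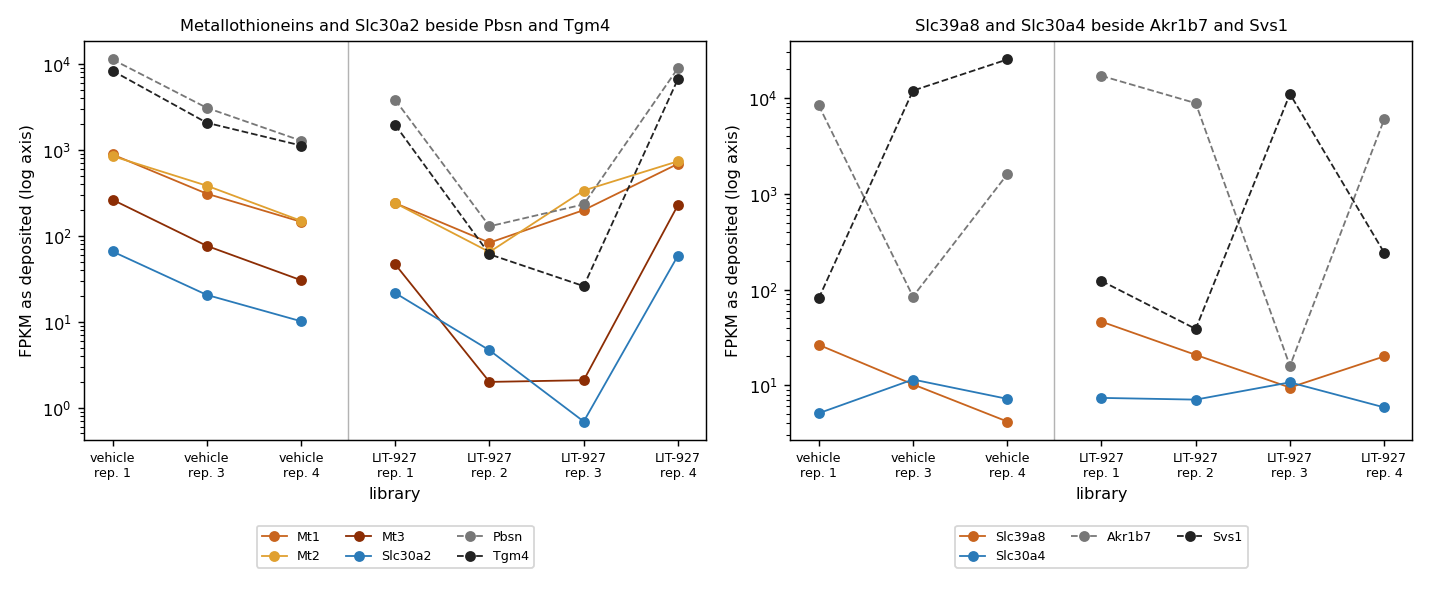
FPKM as deposited (log axis) in each library, zinc genes as solid and tissue markers as dashed lines. Lines only join the points of a gene within a group, since libraries have no order. At left Mt1, Mt2, Mt3 and Slc30a2 are highest in vehicle replicate 1 and LIT-927 replicate 4, as Pbsn and Tgm4 are. The prostate markers Sbp, Msmb and Hoxb13, not drawn, are highest in other libraries. At right Slc39a8 is at 4.18 to 10.2 FPKM where Svs1 is at 11062 FPKM or more.

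The other zinc transporter genes gave 0 calls too. Of 8 other SLC30 exporters 7 were measured, 2 lower and 5 higher, with a median difference of 0.09, and 0 passed the test. Slc30a5, which loads the secretory pathway, had 29.6 ± 1.9 FPKM with LIT-927 and 25.8 ± 5.4 with vehicle. Slc30a10, a manganese exporter, had 0.0365 ± 0.0357 against 0.325 ± 0.538 FPKM. The vehicle mean came from replicate 3 (0.946 FPKM), the other vehicle libraries being at 0.0203 and 0.00971 FPKM. Slc30a3, a vesicle transporter of neurons, had 0.0453 ± 0.0224 against 0.0127 ± 0.0128 FPKM. Of 9 other SLC39 importers 6 were measured, 1 lower and 5 higher, with a median of 0.03 and 0 past the test. Slc39a11 was at 14.5 ± 3.5 against 12.1 ± 3.6 FPKM, and Slc39a13, a Golgi zinc transporter, at 6.20 ± 1.76 against 6.39 ± 2.33 FPKM. Slc39a4, the intestinal uptake transporter, was at 0.111 FPKM in LIT-927 replicate 3 and at 1.15 to 4.17 FPKM in the other 6 libraries.

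Lists of MTF1 target, glucocorticoid, interleukin-6 or NF-kB genes and of other divalent metal transporters gave 0 calls as well. At an unadjusted p under 0.05 limma gave 2 interleukin-6 or NF-kB genes, Hp and Socs3 (0.0404, with overlap of the groups), and 1 divalent metal transporter, Slc11a1. It gave 0 in the other lists, those of the zinc transporters included. Of all genes 3.68% passed that mark, and 8.42% after median-of-ratios scaling. Of 6 other genes named as MTF1 targets 5 were lower (median -0.21). Ndrg1, a stress-responsive gene, was at 6.87 ± 3.22 FPKM with LIT-927 against 12.7 ± 7.6 with vehicle, and the importer Slc39a10, known as repressed by MTF1, at 1.27 ± 0.31 against 1.25 ± 0.40 FPKM. Of 10 glucocorticoid-induced genes 7 were lower (median -0.19). Pdk4, a kinase that inhibits pyruvate dehydrogenase, had 0.979 ± 0.525 against 1.91 ± 1.04 FPKM. Sgk1, a kinase of sodium transport, was at 256 ± 156 against 144 ± 29 FPKM. Of 9 measured genes induced by interleukin-6 or NF-kB 6 were lower (median -0.39), and in 2, Hp and Saa3, all LIT-927 libraries lay below all vehicle libraries, as for 2.12% of all genes. Saa3 was low, at 0.559, 0.278 and 6.67 FPKM with vehicle and 0.231, 0, 0 and 0.054 FPKM with LIT-927 (limma unadjusted p = 0.0636). Hp, haptoglobin, was at 0.504 ± 0.136 FPKM with LIT-927 and 1.78 ± 0.58 with vehicle without overlap (difference -0.87, SE 0.18; limma adjusted p = 0.998, unadjusted 0.00154). Lcn2, an iron-withholding lipocalin, was at 206 ± 149 against 59.4 ± 27.7 FPKM with overlap. Of 8 measured transporters of other divalent metals 3 were lower (median 0.11). For Slc11a1, a macrophage metal transporter, the means were 0.493 ± 0.218 and 1.24 ± 0.48 FPKM without overlap (difference -0.58, SE 0.19; limma adjusted p = 0.998, unadjusted 0.0167). The macrophage markers given above were also lower in 6 of 6, and their part in the Slc11a1 value was not tested. The copper importer Slc31a1 had means of 34.7 ± 5.1 and 24.6 ± 6.6 FPKM (0.50 higher, SE 0.22; limma adjusted p = 0.998).

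The genes most like each of the 10 across the libraries were ranked by Pearson r of log2(FPKM + 1) over 7 libraries among 11050 genes with a mean of at least 1 FPKM. For Mt1 they were Tst (r = 0.994), Lap3 (0.993) and Gss (0.993). For Mt2 they were Pmm2 (0.990), Slc38a10 (0.988) and Mycl (0.984). For Slc39a8 they were Rrm1 (0.996), Maip1 (0.996) and Mpc2 (0.995), and for Slc30a4 Itpripl1 (0.973), Elf3 (0.967) and Myo1d (0.964). No test was made. Of the 30 genes ranked for the 10, 4 were ranked again after scaling (Slc38a10 for Mt2, Mtx2 for Slc30a1, Elf3 for Slc30a4 and Trim3 for Slc39a14).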

How the data were processed

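Per the labels' protocols, prostate RNA was isolated by TRIzol, and libraries came from a VAHTS kit. Tools named, per the submitters' processing notes, are fastp, HISAT2 and HTSeq, with the build mm10. Versions, annotation, strand setting and filters: not given in the sources used here. Each deposited column holds FPKM computed by the authors, a unit read from the values since the headers name none. Whole fragments were recovered from the FPKM steps for all 16019 genes (within 0.01 fragments) and gave depth and an alternative.

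The test was limma 3.58.1 (R 4.3.3) with a trended prior variance on log2(FPKM + 1), 3 vehicle against 4 LIT-927 libraries. It used no filter, no covariate and Benjamini-Hochberg adjustment over all genes. A run on simulated data, with genes drawn independently, was judged only by the median size of the estimates, and the power of the test is not given. Exact permutation tests are two-sided, over 35 divisions of the libraries or 5040 orders for correlations. The genes and lists were chosen with earlier results of these data known. Named genes are the 10 and the gene with the smallest p per direction in each list. The 3 most alike are named for Mt1, Mt2, Slc39a8 and Slc30a4, and for the others only those ranked again after scaling. Slc30a5, Slc39a4, Saa3, Socs3 and the tissue genes set beside the zinc genes were named after their values were seen. Coordinates are from GENCODE M21 (mm10). Whether the replicate numbers pair the libraries is not known, and the main fit did not use them. Other settings tried were 0.1 as pseudocount, genes kept only with 1 FPKM or more in 3 libraries, upper-quartile or median-of-ratios factors, voom, a replicate block and left-out libraries. A prostate luminal marker is not reported here and was left out of that list.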

Additional observations from a re-analysis of the deposited data

Results flagged for a closer look

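Slc39a6 in LIT-927 replicate 3, at 8.04 FPKM, was far from the other 3 LIT-927 libraries (3.89 to 4.52 FPKM), a gap beyond the 95% limit of Dixon's test for 4 values. Chance marks about 1 in 20 groups, and 10 genes were looked at. The same library was highest of the LIT-927 libraries for Slc30a4 (10.7 FPKM) and for Upk1a, a uroplakin of bladder lining (253 FPKM against 6.64 to 10.1). For another uroplakin, Upk1b, it was not, at 19.7 FPKM against 27.3 FPKM in LIT-927 replicate 4. It was also highest of the LIT-927 libraries for Svs1 (11062 FPKM) and Sbp (114916 FPKM). The part of these tissues in the Slc39a6 value was not tested.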

How the results depend on the processing

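No setting brought any of the 10 genes past an adjusted p of 0.05 (lowest 0.428, Slc39a8). Slc39a7 and Slc39a8 kept their sign in 23 of 23 settings. Signs turned with median-of-ratios scaling for Slc30a4 (-0.052), with upper-quartile scaling for Slc30a4 (-0.074) and, without both libraries high in uroplakin, for Mtf1 (0.073). After scaling as well, leaving out both gave -0.0017 for Slc30a1, -0.097 for Slc30a4 and -0.100 for Slc39a6. Then 7 genes were lower, against 5 with all libraries after scaling. In the deposited values leaving out both gave 3 genes lower in place of 4. Without 1 library at a time, differences ranged from -1.19 to 0.11 for Mt1, -1.19 to 0.10 for Mt2, -0.29 to 0.088 for Mtf1, 0.03 to 0.28 for Slc30a1, -0.24 to 0.28 for Slc30a4, -0.13 to 0.27 for Slc39a1, -0.15 to 0.28 for Slc39a6, 0.05 to 0.32 for Slc39a7, 0.31 to 1.52 for Slc39a8 and -0.50 to 0.026 for Slc39a14. After scaling, they ranged from -1.07 to 0.03 for Mt2, -0.47 to 0.16 for Slc30a4 and -0.22 to 0.19 for Slc39a6 (-0.014 without vehicle replicate 1), with Slc30a4 at -0.301 without LIT-927 replicate 3. The number of genes lower ranged from 1 (without vehicle replicate 1) to 7 (without vehicle replicate 4), and from 4 to 6 after scaling. Without these libraries the median of all genes was 0.14 and -0.12. The number whose groups did not overlap ranged from 0 to 1: Slc30a1 without vehicle replicate 1 and Slc39a14 without vehicle replicate 4, and after scaling Slc39a8 without vehicle replicate 1, Slc39a7 without vehicle replicate 4, Slc39a6 without LIT-927 replicate 3 or without both libraries high in uroplakin (1), and Mtf1 without LIT-927 replicate 4. Of all genes 3.20% did not overlap with all 7 libraries, and 9.39% to 26.3% in these 7 settings. The correlation of Mt1 with Mt2 stayed between 0.913 and 0.991. The cause was not tested.

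Replicate numbers 1, 3 and 4 occur in both groups. Deviations of same-numbered libraries from their group means correlated at 0.565, 0.70 and -0.238. Those of libraries with different numbers correlated at -0.647 to 0.642. Both ranges span 0, so these values cannot decide whether the numbers pair the libraries. With the replicate block, Mt2 was at 0.097 and, after scaling, Mt2 at 0.033 and Slc30a4 at -0.023; 0 genes of the 10 passed. LIT-927 replicate 2 has no partner and adds nothing to the blocked difference.

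The lowest count behind any of the 10 genes was 398 fragments (Slc39a6). The number of libraries, 3 and 4, sets the width of the intervals together with the spread between them.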
